A study of Mus musculus with 24 samples.

Results

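The 6 libraries labelled PV were compared with the 6 labelled SST, 12 of the 24 libraries of a bulk RNA-seq series of neurons from adult mouse cortex. Cells were freed with papain, and live cells carrying GFP or tdTomato, whichever the reporter line made, were collected by fluorescence. The other 12 libraries, labelled EXC and VIP, entered the model as further groups. Members were taken by the subtype label alone, and no measured value was used to choose them. The labels do not spell out PV or SST, name no treatment, and do not say which reporter line, Cre driver or allele belongs to which library, so what the 2 groups share or differ in by genotype is not known here beyond the fluorescent reporter. They give adult animals with no age in days and do not say how many animals went into a library or whether any 2 libraries share animals. The p-values therefore speak of the variation among the libraries at hand, which may be technical. PV has 3 male (replicates 1, 2 and 4) and 3 female libraries, and SST has 4 male and 2 female (replicates 4 and 6). Replicate numbers follow the accession order and pair nothing.

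All 6 PV libraries were sequenced in POOL6188, SST replicate 5 in POOL7100 and the other 5 SST libraries in POOL7098. The 2 groups never shared a sequencing pool, so no difference between them could be measured within a pool, and subtype and pool cannot be told apart from these 12 libraries. A model with the pool as a covariate links PV to SST only in steps. EXC shares POOL6188 with PV, EXC replicate 3 shares POOL7099 with VIP, and VIP replicates 1 and 3 share POOL7098 with SST. SST replicate 5, alone in POOL7100, has a pool term of its own and adds nothing to the link. Values of this model are given below as the pool-adjusted values, beside those of the fit with no pool term. They rest on EXC replicate 3, the only EXC library outside POOL6188, and on VIP replicates 1 and 3, the only VIP libraries in POOL7098. EXC replicate 3 stood apart from the other EXC libraries in several gene lists, as given below. Mitochondrial reads made up 1.80% and 5.83% of VIP replicates 1 and 3, against 4.81% to 16.6% in the other VIP libraries. Total counts ran from 1548907 to 4653119 in PV, lowest in replicate 6, and from 5508099 to 15978459 in SST, lowest in replicate 3.

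In cortex, PV and SST commonly name the parvalbumin and somatostatin classes of inhibitory neurons. Both are born in the medial ganglionic eminence of the embryo and depend on the transcription factors Nkx2-1, Lhx6, Sox6 and Satb1. In adult cortex, parvalbumin cells are mostly fast-spiking basket and chandelier cells that inhibit the soma and the axon initial segment of their targets, with narrow spikes set by Kv3 channels, fast synchronous release and high energy use. Somatostatin cells, among them Martinotti cells, mostly inhibit dendrites, receive facilitating excitatory inputs and carry several neuropeptides.

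The defining genes of the classes and 2 genes described below have the following stretches, the 250 bases before the RefSeq start, shown 5′ to 3′ on the gene's strand so that the letters stand beside the levels. Capitals mark a match to one of the motifs searched on both strands, the cyclic AMP response element TGACGTCA or the estrogen-related receptor element, which reads TGACCTTGA on one strand. The motifs do not overlap each other in these windows. Syt2 and Atp5g3, a release gene and an ATP synthase gene described below, are shown because their windows hold the second motif.
Pvalb: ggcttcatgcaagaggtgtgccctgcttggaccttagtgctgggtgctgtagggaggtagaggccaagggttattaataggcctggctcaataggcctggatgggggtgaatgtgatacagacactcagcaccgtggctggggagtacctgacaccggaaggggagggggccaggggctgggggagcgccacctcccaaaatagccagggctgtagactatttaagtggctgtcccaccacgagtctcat
Sst: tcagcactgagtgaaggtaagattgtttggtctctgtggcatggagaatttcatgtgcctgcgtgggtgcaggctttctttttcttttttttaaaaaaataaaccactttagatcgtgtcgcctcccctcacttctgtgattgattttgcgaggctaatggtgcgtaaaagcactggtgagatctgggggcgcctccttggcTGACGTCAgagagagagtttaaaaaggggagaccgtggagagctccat
Syt2: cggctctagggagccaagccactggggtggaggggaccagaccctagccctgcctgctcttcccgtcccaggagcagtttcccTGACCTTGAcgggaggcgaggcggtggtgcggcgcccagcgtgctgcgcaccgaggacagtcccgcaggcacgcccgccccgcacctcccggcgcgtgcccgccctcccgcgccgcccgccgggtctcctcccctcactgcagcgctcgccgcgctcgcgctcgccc
Atp5g3: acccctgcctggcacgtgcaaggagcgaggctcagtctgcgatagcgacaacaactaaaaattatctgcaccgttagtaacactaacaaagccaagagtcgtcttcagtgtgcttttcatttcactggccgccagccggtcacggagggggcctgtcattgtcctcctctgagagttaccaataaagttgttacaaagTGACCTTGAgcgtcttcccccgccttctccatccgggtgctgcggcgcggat
In GRCm38.p6 these windows lie at chr15:78206401-78206650 on the minus strand, chr16:23890845-23891094 on the minus strand, chr1:134646362-134646611 on the plus strand and chr2:73911327-73911576 on the minus strand. RefSeq lists 2 starts for Pvalb and 2 for Syt2, of which the most upstream is shown. The spans of Sst, Syt2 and Atp5g3 in the RefSeq gene table reach upstream of the start listed with their promoter, so their windows lie within or across the end of those spans. The Sst window has TGACGTCA from 48 to 41 bases before the start, a known element of this promoter. TGACCTTGA stands 167 to 159 bases before the start of Syt2 and 52 to 44 bases before that of Atp5g3. The first motif was found in 1.77% of 27025 genes with a promoter window and in 3.01% of the 10906 tested genes that have one. It was in 3.16% of the genes called higher in PV and in 2.54% of those called higher in SST, both near the share of the tested genes. The second was in 0.422%, 0.293%, 0.316% and 0.362% of the same sets. A match of letters is a description and no binding was measured.

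Of the 14890 genes tested, 1698 were higher in PV (11.4%) and 2213 higher in SST (14.9%), together 26.3%, by edgeR's quasi-likelihood test with Benjamini-Hochberg adjustment. The median log2 fold change over all genes tested was -0.03. Counts of list members given below are to be read against these shares of all genes, 11.4% higher in PV and 14.9% higher in SST. The 6 PV libraries lay wholly above the 6 SST libraries for 1351 genes (9.07%) and wholly below for 1742 (11.7%), and 1162 and 1521 of these were called. In the pool-adjusted fit 1101 genes were higher in PV (7.39%) and 2158 higher in SST (14.5%), and the median over all genes was -0.26. That fit kept 1082 of the 3911 calls, gave 2854 the same direction and called 83 in the opposite direction. The pool-adjusted value or its adjusted p is given below for each gene described whose call it ends, except genes named only among the flagged values. Of those, Myh13, Adgrg6, Epyc and Otof lost their calls in that fit (adjusted p = 0.0506, 0.0715, 0.0677 and 0.263), and Tmem212 could not be estimated.

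Below, 3 levels in a row are the lowest, median and highest of the 6 libraries of a group in CPM, the share of reads after TMM scaling of library sizes. Changes are log2 fold changes of PV over SST ± standard error, so negative values are higher in SST, and 2 pool-adjusted counts stand in the same order as the counts before them. Each group carried its defining gene far above the other. Pvalb, which encodes the calcium buffer parvalbumin (NCBI Gene 19293, GRCm38 chromosome 15, 78191112 to 78206400), had a lowest, median and highest level of 178, 201 and 232 CPM in PV and 1.24, 3.01 and 5.39 CPM in SST. Every PV library stood above every SST library, and the highest SST libraries were both female replicates. The log2 fold change of Pvalb was 5.96 ± 0.35 (adjusted p = 2.01e-12), and the pool-adjusted value was 4.86 ± 2.26 (adjusted p = 0.127). Sst, the somatostatin gene (20604, chromosome 16, 23889573 to 23891342), had 701, 1225 and 1422 CPM in SST and 9.71, 41.1 and 133 CPM in PV. PV replicates 3 and 4 held the most, with 111 and 133 CPM, against 9.71 in replicate 1, and the groups did not overlap. Its log2 fold change was -4.18 ± 0.68 (adjusted p = 3.37e-05; pool-adjusted -5.86 ± 1.93, adjusted p = 0.0307). In bulk samples, fewer cells of a type and less RNA per cell cannot be told apart, so the Sst reads of PV libraries do not say which cells held them.

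**Figure D1:**
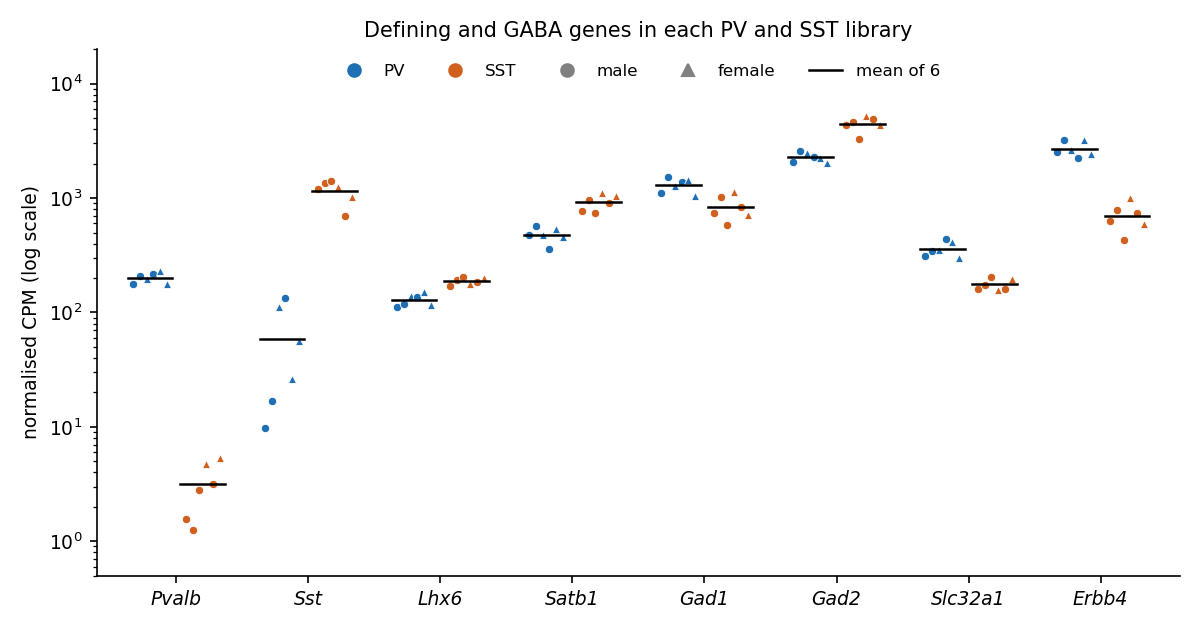
Normalised CPM on a log axis of 8 genes in each of the 6 PV and 6 SST libraries, with circles for male and triangles for female libraries and a bar at the mean of 6. Pvalb, Slc32a1 and Erbb4 lie wholly higher in PV, Sst, Lhx6, Satb1 and Gad2 wholly higher in SST, and Gad1 overlaps.

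Of 17 tested genes listed as parvalbumin-class markers, 14 were higher in PV and 3 higher in SST, with a median log2 fold change of 1.90. The 3 that went the other way were Cpne5, a calcium-dependent membrane-binding protein, Gpr149, an orphan receptor, and Th, tyrosine hydroxylase, with -4.85, -2.88 and -2.12 on the log2 scale (adjusted p = 9.71e-09, 0.00336 and 0.00969; pool-adjusted p = 4.57e-06, 0.0798 and 1). The pool-adjusted fit called 3 higher in PV and 1 higher in SST. Of 24 listed somatostatin-class markers, 19 were higher in SST and 2 higher in PV, with a median of -4.17, and the pool-adjusted fit called 11 and 0. The 2 higher in PV were Etv1, a transcription factor (1.53 ± 0.24, adjusted p = 2.09e-05; pool-adjusted p = 0.537), and Pdlim3, a cytoskeletal adaptor (2.07 ± 0.59, adjusted p = 0.00959; without SST replicates 1 and 3 adjusted p = 0.0512, and pool-adjusted p = 0.842 with a negative value near 0).

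Of 16 tested transcription factors of the shared lineage, 2 were higher in PV and 3 in SST, with a median of -0.25, and the pool-adjusted fit called 1 and 1. The counts of 2 and 3 lie near the shares of all genes tested, 11.4% and 14.9%, so the list stands out in neither direction. Lhx6, which specifies both classes, ran at 111, 128 and 152 CPM in PV and 169, 188 and 203 CPM in SST. Its groups did not overlap, yet the change of -0.56 ± 0.29 was not called in the fit of all 24 libraries (adjusted p = 0.163). It was called in the fit of the 12 PV and SST libraries alone (-0.54, adjusted p = 0.000351) and in the fit with no filter on low counts (-0.65, adjusted p = 0.0281). Sox6, required for the maturation of both classes, had 193, 240.2 and 245 CPM in PV and 179, 197 and 218 CPM in SST, which overlapped (0.25 ± 0.37, adjusted p = 0.671). Satb1, a chromatin organiser needed for somatostatin cells, was higher in SST with 739.7, 935 and 1096 CPM against 358, 475 and 576 CPM. That difference came to -0.95 ± 0.14 (adjusted p = 5.61e-06; pool-adjusted -0.62 ± 0.36, adjusted p = 0.229). Mef2c, an activity-regulated factor, was higher in PV with 1241, 1445 and 1732 CPM against 468, 665 and 853 CPM, a change of 1.2 ± 0.16 (adjusted p = 2.68e-06; pool-adjusted p = 0.201). Bcl11b, also called Ctip2, was higher in SST, with log2 change of -1.27 ± 0.18 (adjusted p = 5.84e-06; pool-adjusted -1.41 ± 0.50, adjusted p = 0.0436).

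Genes of GABA synthesis and transport split between the groups. Gad1, the main source of cytosolic GABA, ran at 1033, 1321 and 1530.1 CPM in PV and 576, 792 and 1137 CPM in SST. SST replicate 4, with 1137 CPM, reached into the PV range. The change of 0.64 ± 0.19 was called (adjusted p = 0.0112; pool-adjusted 1.43 ± 0.45, adjusted p = 0.0236), but not without SST replicates 1 and 3 (0.45, adjusted p = 0.107). Gad2, the synaptic isoform, went the other way, with 3258, 4532 and 5243 CPM in SST and 2009, 2277 and 2582 CPM in PV and no overlap. Its log2 change was -0.96 ± 0.21 (adjusted p = 9.54e-04), and the pool-adjusted value had the opposite sign and was not called (0.25 ± 0.43, adjusted p = 0.714). Slc32a1, the vesicular GABA transporter, was higher in PV at 297, 345 and 442 CPM against 158, 167 and 206 CPM (1.05 ± 0.29, adjusted p = 0.00708), and it also turned sign with the pool (-1.47 ± 0.73, adjusted p = 0.154).

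Erbb4, the neuregulin receptor of interneurons, was the pan-GABAergic gene with the largest change. It ran at 2259, 2566 and 3235 CPM in PV and 432, 691 and 1004 CPM in SST, with no library of one group inside the range of the other. The change was 1.96 ± 0.23 (adjusted p = 3.17e-07), and the pool-adjusted value was larger (3.22 ± 0.50, adjusted p = 7.53e-05). Of 15 pan-GABAergic genes, 6 were higher in PV and 1 in SST, with a median of -0.00, and the pool-adjusted fit called 3 and 3.

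Among the 15 genes with the largest change towards PV, 8 belong to the list of ciliated ependymal cells and are described with the other cell types below. The rest included Kcng4, a silent subunit that modifies Kv2 channels and marks fast-spiking cells, with 16.1, 31.2 and 41.1 CPM in PV and 0, 0.121 and 1.15 CPM in SST. No SST library came near the PV range, and the ratio of summed reads was 118 (counting interval 76.8 to 189.6), but the pool-adjusted value of 1.01 ± 5.16 was not called (adjusted p = 0.913). Kcnmb1, a beta subunit of BK channels, Prelp, a small leucine-rich matrix protein, Fbln7, a matrix glycoprotein, and Slc14a2, a urea transporter, were also among them. Of these, Kcnmb1, Fbln7 and Slc14a2 lost their calls with the pool (adjusted p = 0.0995, 0.916 and 0.16). Prelp had 22.9, 73.2 and 98.2 CPM in PV and 0.659, 1.03 and 1.63 CPM in SST (6.11 ± 0.95, adjusted p = 1.64e-05), and its pool-adjusted value had the opposite sign with a wide error (-4.39 ± 6.68, adjusted p = 0.679). Of the 15, the pool-adjusted fit called 3 higher in PV, namely Dnah12, Ccdc146 and Spef2, all genes of motile cilia. The list of ciliated ependymal cells had only 2 pool-adjusted calls, so not all 3 are on it. Genes of motile cilia among the 15 thus number more than the 8 on the list. Stoml3, Tmem212, Fam216b, Ccdc153 and Cfap161, also among the 15, had pool-adjusted errors of 19849 or more, so that fit could not estimate them.

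Among the 15 genes with the largest change towards SST, Sftpb, the gene of surfactant protein B, and Chodl, a lectin-like membrane protein that marks long-range somatostatin cells, had no read in any PV library. Chodl ran at 11.4, 14.2 and 19.6 CPM in SST, at least 71.7-fold higher if the PV group as a whole is set to a floor of 3 counts. The pool-adjusted fit could not estimate its change (-0.075 ± 75428.6), so the missing call there does not speak to the difference. Sftpb had 0.466, 36.4 and 43.6 CPM in SST, at least 149-fold higher against the same floor, with a pool-adjusted value of -5.46 ± 4.82 that was not called (adjusted p = 0.45). Its lowest value belonged to SST replicate 5, the one SST library of POOL7100, while the other 5 stood at 28.2 CPM or more. VIP libraries averaged 28.3 ± 44.0 CPM and EXC 0.242 ± 0.594 (SD, n = 6 each). Pdyn, the dynorphin precursor, ran at 133, 179.9 and 235 CPM in SST and 0.370, 2.17 and 8.81 CPM in PV, a ratio of summed reads of 63.0 (counting interval 46.2 to 88.2). Fxyd6, a modulator of the sodium pump, ran at 74.7, 104 and 173 CPM in SST and 0, 0.698 and 2.15 CPM in PV, a ratio of 139.5 (77.9 to 279.6). The orphan receptor Gpr101, the GABA-A theta subunit Gabrq, the non-canonical Notch ligand Dlk1, the prolactin receptor Prlr and the Wnt ligand Wnt7a were also in this set. The pool-adjusted fit called 9 of the 15 higher in SST.

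**Figure D2:**
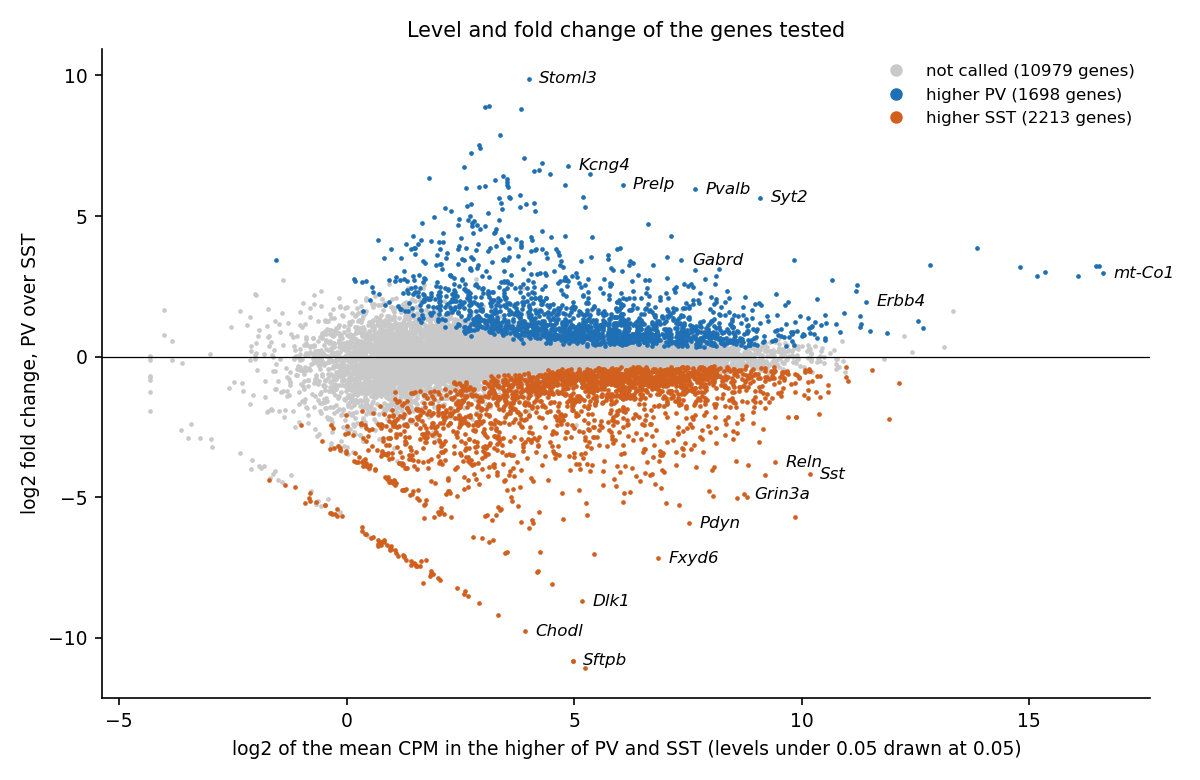
Log2 fold change of PV over SST against the log2 of the mean CPM in the higher group for 14890 genes, coloured by the call. The mitochondrial genes with mt-Co1 stand at the right at high level, and the lower diagonal bands are genes with few or no reads in PV.

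Neuropeptide genes leaned to SST. Of 21 precursors tested, 9 were higher in SST and 3 in PV, with a median of -0.90, and the pool-adjusted fit called 7 and 0. Penk, the enkephalin precursor, ran at 169, 345 and 697 CPM in SST and 4.22, 12.1 and 20.4 CPM in PV (-5.02 ± 0.38, adjusted p = 1.44e-10; pool-adjusted -6.17 ± 0.89). Penk also belongs to the striatal list, and its highest SST libraries, replicates 1 and 3, were those with the most striatal reads, a sum that counts Penk itself. Npy, neuropeptide Y, ran at 134, 191 and 254 CPM in SST and 21.6, 46.5 and 62.5 CPM in PV, without overlap (-2.21 ± 0.33, adjusted p = 7.94e-06). Crh, corticotropin-releasing hormone, and Nts, neurotensin, were low in SST, at medians of 9.20 and 13.4 CPM, and at most 0.937 and 1.5 CPM in PV, and the call of Crh was lost with the pool (adjusted p = 0.16). Tac2, the neurokinin B precursor, had 1 read in all PV libraries and 2.64, 4.90 and 17.3 CPM in SST.

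The 3 peptide genes higher in PV were Cck, Pthlh and Tac1. Tac1, the substance P precursor, had 121, 151 and 229 CPM in PV and 39.3, 96.0 and 118 CPM in SST, where the nearest libraries were close without crossing (1.10 ± 0.30, adjusted p = 0.00648; pool-adjusted p = 0.76). Cck, cholecystokinin, had 89.1, 122 and 180.5 CPM in PV and 21.9, 24.6 and 40.1 CPM in SST (2.26 ± 0.31, adjusted p = 2.43e-06). The pool-adjusted value of Cck turned sign and was not called (-0.54 ± 0.55, adjusted p = 0.516). Pthlh, parathyroid hormone-like hormone, was low in both, at medians of 11.0 and 3.47 CPM (1.90 ± 0.29, adjusted p = 1.51e-05; pool-adjusted p = 0.852). Cort, cortistatin, is related to somatostatin and was not called, at 5.16, 9.92 and 13.4 CPM in PV and 9.15, 12.3 and 18.8 CPM in SST (-0.47 ± 0.42, adjusted p = 0.46), and its pool-adjusted value turned sign (1.68).

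Receptors for peptides and opioids leaned the same way, with 18 of 27 tested genes higher in SST, 4 in PV and a median of -1.54 (pool-adjusted 14 and 0). The 4 became 2 without PV replicate 4, PV replicate 5 or SST replicate 4. The opioid receptors split between the classes. Oprd1, the delta receptor, ran at 79.2, 140.4 and 164 CPM in PV and 31.6, 48.2 and 59.5 CPM in SST (1.45 ± 0.27, adjusted p = 1.63e-04; pool-adjusted p = 0.839). Oprm1, the mu receptor, ran at 50.3, 55.4 and 63.0 CPM in SST and 3.70, 9.16 and 16.4 CPM in PV (-2.68 ± 0.26, adjusted p = 1.36e-08; pool-adjusted -2.38 ± 0.65, adjusted p = 0.011). Oprk1, the kappa receptor for dynorphin, ran at 16.2, 24.9 and 38.6 CPM in SST and at most 2.15 CPM in PV (-5.79 ± 0.67, adjusted p = 2.25e-07). For none of the 3 receptors did the groups overlap. Sstr1, a somatostatin receptor, was higher in SST, with log2 change of -4.81 ± 0.36 (adjusted p = 1.41e-10), and Galr1 and Crhr2, receptors for galanin and urocortins, had no read in PV and up to 8.65 and 6.83 CPM in SST. Cckbr, the main brain cholecystokinin receptor, was higher in PV at 33.3, 38.9 and 44.0 CPM against 10.1, 12.2 and 17.1 CPM (1.64 ± 0.41, adjusted p = 0.00331), but the pool-adjusted fit called it in the opposite direction (-5.96 ± 1.85, adjusted p = 0.0236).

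Potassium channels of the Kv1 and Kv3 families were higher in PV for 9 of 13 tested genes and higher in SST for the other 4, with a median of 0.92. Kv3 channels repolarise spikes quickly. Kcnc1, Kv3.1, ran at 656, 831 and 943 CPM in PV and 162, 216 and 266 CPM in SST (1.93 ± 0.16, adjusted p = 7.61e-10; pool-adjusted 1.12 ± 0.38, adjusted p = 0.0343). Kcnc2, Kv3.2, known from both classes, was higher in PV by less, 902, 1016 and 1217 CPM against 385, 563 and 833 CPM (0.81 ± 0.17, adjusted p = 6.29e-04; pool-adjusted p = 0.0188). The groups did not overlap for either gene. Kcnc4, Kv3.4, went the other way with 28.4, 36.2 and 54.5 CPM in SST and 2.24, 7.73 and 8.81 CPM in PV (-2.58 ± 0.24, adjusted p = 5.90e-09).

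In the Kv1 family, Kcna1, a channel of axons and axon initial segments, was higher in PV at 639, 776 and 993 CPM against 167, 228 and 259 CPM (1.83 ± 0.17, adjusted p = 4.09e-09; pool-adjusted p = 0.0299). Its partner subunit Kcnab3 was higher in PV by 2.40 ± 0.23 (adjusted p = 1.16e-08; pool-adjusted p = 0.0327). Kcna4, which gives an inactivating A-type current, was higher in SST at 81.8, 119 and 164 CPM against 8.97, 11.2 and 12.9 CPM (-3.36 ± 0.32, adjusted p = 9.52e-09; pool-adjusted p = 0.0377). The pool-adjusted fit called 5 of the list higher in PV and 3 in SST, with a median of -0.14.

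The remaining voltage-gated potassium genes gave 6 higher in PV and 10 in SST of 27 tested (pool-adjusted 2 and 16). Kcnd3, the A-type channel Kv4.3, ran at 209, 215 and 262 CPM in SST and 21.6, 31.7 and 57.3 CPM in PV (-2.63 ± 0.18, adjusted p = 2.63e-11; pool-adjusted -3.07 ± 0.47). Kcnv1, a silent subunit, was likewise higher in SST (-2.86 ± 0.26, adjusted p = 4.83e-09). Kcns3, a silent subunit known from parvalbumin cells, was higher in PV at 44.1, 54.6 and 64.0 CPM against 9.50, 13.3 and 16.3 CPM (2.04 ± 0.36, adjusted p = 9.71e-05; pool-adjusted p = 0.775), and Kcnh7, an ERG channel, by 1.68 ± 0.17 (adjusted p = 2.80e-08; pool-adjusted p = 0.00928). Of 20 calcium-activated and leak channel genes, 7 were higher in PV and 5 in SST (pool-adjusted 1 and 1). Lrrc38, a BK channel gamma subunit, ran at 21.5, 25.4 and 29.1 CPM in PV and 1.73, 1.99 and 2.67 CPM in SST (3.61 ± 0.33, adjusted p = 4.51e-09; pool-adjusted p = 0.892). The acid-sensitive leak channels parted, with Kcnk3 higher in PV (1.68 ± 0.28, adjusted p = 5.62e-05; pool-adjusted p = 0.919) and Kcnk9 higher in SST (-3.21 ± 0.29, adjusted p = 4.01e-09; pool-adjusted p = 0.00187).

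Sodium channel genes also divided by subunit. Scn1a, which encodes NaV1.1 and is the main alpha subunit of fast-spiking cells, ran at 981, 1086 and 1319 CPM in PV and 302, 423 and 637 CPM in SST (1.38 ± 0.20, adjusted p = 7.39e-06; pool-adjusted 2.64 ± 0.43, adjusted p = 1.38e-04). Scn8a, another alpha subunit, was higher in PV by 1.18 ± 0.14 (adjusted p = 4.13e-07; pool-adjusted p = 0.191). In contrast Scn2a was higher in SST at 685, 834 and 996 CPM against 126, 168 and 326 CPM (-2.15 ± 0.20, adjusted p = 6.91e-09; pool-adjusted p = 0.00479). Scn3a, best known from the developing brain, ran at 87.8, 96.0 and 105 CPM in SST and 3.33, 6.62 and 11.3 CPM in PV (-3.73 ± 0.25, adjusted p = 2.07e-11; pool-adjusted -3.38 ± 0.56), and the beta subunit Scn3b followed (-2.86 ± 0.19, adjusted p = 2.07e-11). Over 17 sodium and HCN genes, 4 were higher in PV and 8 in SST (pool-adjusted 1 and 10).

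Of 17 calcium channel genes, 11 were higher in SST and 3 in PV, with a median of -0.84 (pool-adjusted 9 and 1). Cacna1e, the R-type channel, ran at 438, 546 and 626 CPM in SST and 51.5, 63.3 and 78.3 CPM in PV (-3.03 ± 0.15, adjusted p = 1.30e-13; pool-adjusted -3.03 ± 0.39). The auxiliary subunit Cacna2d3 ran at 108, 124 and 137 CPM in SST and 3.74, 6.27 and 10.7 CPM in PV (-4.10 ± 0.21, adjusted p = 1.30e-13), and Cacna2d1 was higher in SST, with log2 change of -3.49 ± 0.26 (adjusted p = 1.26e-10). Both genes stood wholly higher in SST. Cacna1a, the P/Q-type channel that drives release in parvalbumin terminals, was higher in PV at 148, 193 and 234 CPM against 77.7, 97.0 and 122 CPM (0.99 ± 0.18, adjusted p = 1.00e-04; pool-adjusted p = 0.546). Cacna2d2, its frequent partner, was higher in PV by 0.65 ± 0.21 (adjusted p = 0.0215), but adjusted p rose to 0.0544 without SST replicate 1, to 0.0609 without PV replicate 5, to 0.0806 without SST replicates 1 and 3 and to 0.0717 without PV replicates 3 and 6, and the pool-adjusted value turned sign (-0.61 ± 0.57). Among 20 calcium-binding proteins, 4 were higher in PV and 8 in SST (pool-adjusted 0 and 10). Calb1, calbindin, ran at 237, 392 and 436 CPM in SST and 81.7, 102 and 181 CPM in PV (-1.78 ± 0.25, adjusted p = 3.96e-06; pool-adjusted p = 0.126), and Calb2, calretinin, at 9.97, 11.1 and 17.5 CPM in SST and at most 0.655 in PV (-5 ± 0.61, adjusted p = 4.63e-07).

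Release genes stood on both sides. Syt2, the fast sensor of synchronous release, ran at 359.5, 494 and 752 CPM in PV and 4.62, 10.2 and 18.4 CPM in SST, so the lowest PV library stood far above the highest SST library. The change was 5.65 ± 0.38 (adjusted p = 2.17e-11), and the pool-adjusted value was 2.37 ± 1.77 (adjusted p = 0.358). Vamp1, a vesicle SNARE, was higher in PV at 141, 229.6 and 255 CPM against 38.1, 40.8 and 59.1 CPM (2.26 ± 0.28, adjusted p = 5.40e-07; pool-adjusted p = 0.0759). Complexin 1, encoded by Cplx1, ran at 1047, 1302 and 1587 CPM in PV and 281, 287 and 382 CPM in SST (2.04 ± 0.24, adjusted p = 2.64e-07), and its pool-adjusted value turned sign without a call (-0.35 ± 0.42, adjusted p = 0.596). Complexin 2, encoded by Cplx2, was the reverse, with 398, 461 and 655 CPM in SST and 52.2, 93.1 and 152 CPM in PV (-2.37 ± 0.18, adjusted p = 2.37e-10; pool-adjusted -2.96 ± 0.47, adjusted p = 1.12e-04).

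Further release genes were higher in SST. Syt6, another synaptotagmin, ran at 26.0, 56.4 and 118 CPM in SST and 0, 1.09 and 5.87 CPM in PV (-5.18 ± 0.50, adjusted p = 1.16e-08). Sv2c, a vesicle glycoprotein, ran at 40.3, 61.4 and 94.1 CPM in SST and 1.97, 3.25 and 5.87 CPM in PV (-4.12 ± 0.30, adjusted p = 5.35e-11; pool-adjusted -5.70 ± 0.65). Syt1, the other fast sensor, was higher in SST by a small amount, 2449.8, 2987 and 3613 CPM against 1917, 2277 and 2320.1 CPM (-0.47 ± 0.14, adjusted p = 0.0141; pool-adjusted p = 0.00329). Over 37 genes of the list, 6 were higher in PV and 19 in SST, with a median of -0.42, and the pool-adjusted fit called 0 and 19.

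**Figure D3:**
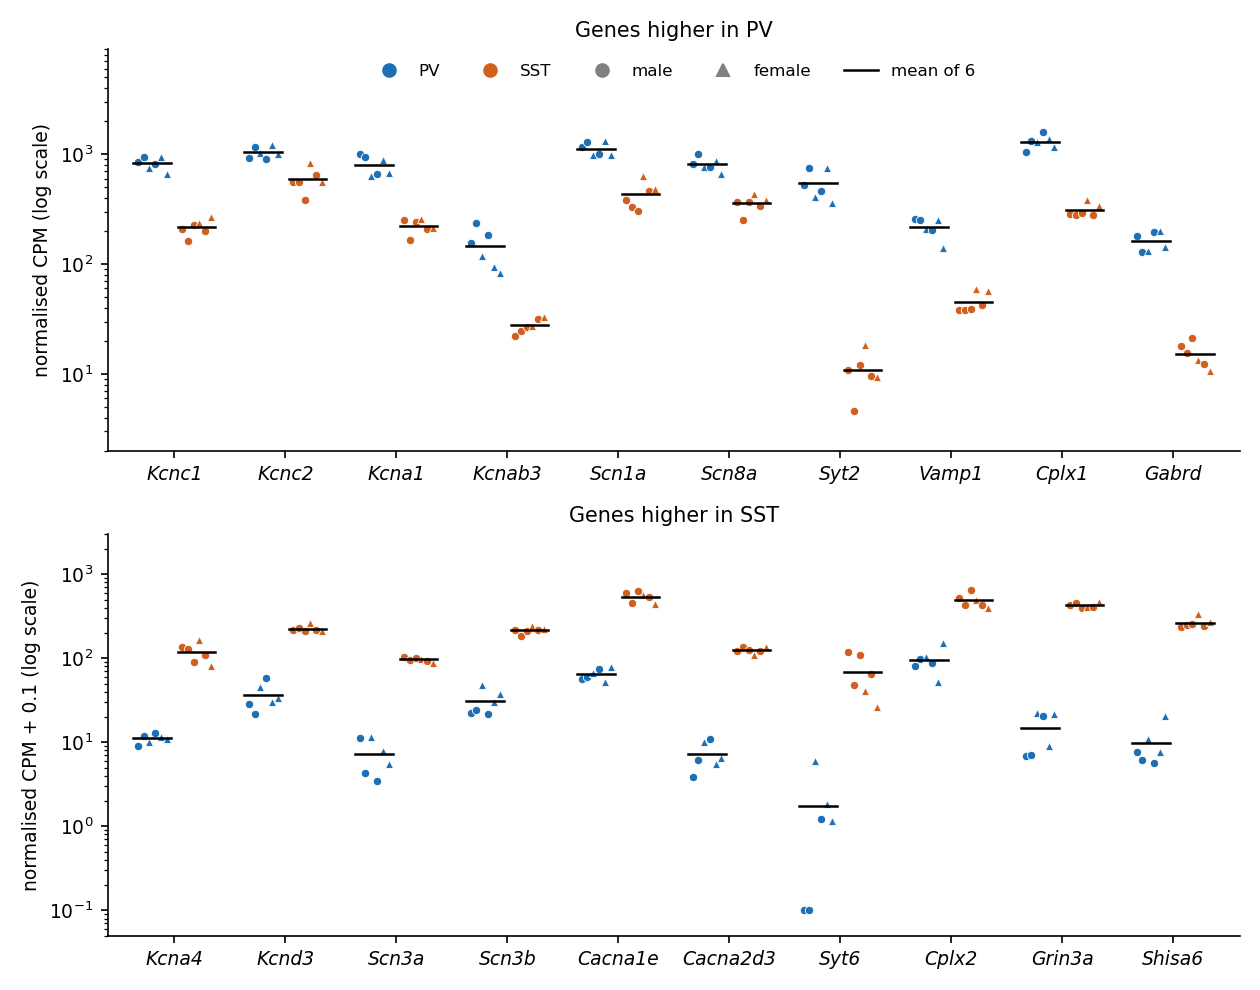
Normalised CPM on log axes of 10 channel, release and receptor genes higher in PV (top) and 10 higher in SST (bottom, with 0.1 added so that zeros show), in each of 6 PV and 6 SST libraries with a bar at the mean. In every gene shown the PV and SST points separate without overlap.

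GABA receptor subunits split within the family, with 7 of 15 higher in PV and 5 in SST and a median of -0.01. Gabrd, the delta subunit of extrasynaptic receptors, ran at 129, 163 and 198 CPM in PV and 10.6, 14.4 and 21.2 CPM in SST (3.43 ± 0.38, adjusted p = 1.04e-07; pool-adjusted p = 0.895). Towards SST stood Gabrg1 (55.7, 91.1 and 144 CPM against 0.655, 3.38 and 17; -4.15 ± 0.55, adjusted p = 1.75e-06), Gabra2 (-3.91 ± 0.35, adjusted p = 3.09e-09) and Gabrb1 (-1.79 ± 0.16, adjusted p = 2.89e-09). The pool-adjusted fit called 0 of the list higher in PV and 7 in SST.

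Glutamate receptor genes leaned to SST, with 15 of 29 AMPA and kainate genes and auxiliary subunits higher there and 5 higher in PV (median -0.76; pool-adjusted 16 and 1). Gria2, the subunit that makes AMPA receptors impermeable to calcium, ran at 1128, 1326 and 1563 CPM in SST and 405, 491 and 617 CPM in PV (-1.43 ± 0.21, adjusted p = 7.26e-06; pool-adjusted p = 0.652). Gria4, a fast AMPA subunit, was higher in PV at 317, 378 and 432 CPM against 148, 191 and 288 CPM (0.91 ± 0.22, adjusted p = 0.0026; pool-adjusted p = 0.299). Neither gene's groups overlapped. Shisa6, an AMPA receptor auxiliary protein, had the smallest adjusted p of all genes tested, with 233, 253 and 339.7 CPM in SST and 5.55, 7.56 and 20.4 CPM in PV (-4.94 ± 0.20, adjusted p = 2.94e-15; pool-adjusted -5.27 ± 0.48, adjusted p = 2.93e-07). Neto1 and Grik3, an auxiliary and a pore subunit of kainate receptors, were higher in SST, with log2 changes of -2.15 ± 0.17 and -2.26 ± 0.19 (adjusted p = 4.78e-10 and 6.29e-10).

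Of 14 NMDA, delta and metabotropic genes, 8 were higher in SST and 1 in PV (median -1.11; pool-adjusted 7 and 0). Grin3a, an NMDA subunit that lowers calcium permeability, ran at 395, 419 and 465 CPM in SST and 6.72, 14.8 and 22.2 CPM in PV (-4.89 ± 0.29, adjusted p = 2.01e-12; pool-adjusted -5.73 ± 0.69). Grin2d, the one member higher in PV (1.03 ± 0.33, adjusted p = 0.0216), lost its call without PV replicate 4 (adjusted p = 0.0685), without SST replicate 2 (0.0512), without SST replicates 1 and 3 (0.0709) and without PV replicates 3 and 6 (0.0611), and turned sign with the pool (-1.40 ± 0.95). Without PV replicate 3 the genes of this list higher in PV numbered 2.

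Receptors for acetylcholine, serotonin, noradrenaline and dopamine gave 14 of 30 higher in SST and 4 in PV (median -1.15; pool-adjusted 16 and 0). Chrna2, a nicotinic subunit of Martinotti cells, had 1 read in all PV libraries and 4.98, 7.67 and 11.4 CPM in SST (-6.45 ± 0.95, adjusted p = 8.24e-06; pool-adjusted p = 0.295). Chrm3, a muscarinic receptor, was higher in SST, with log2 change of -2.76 ± 0.38 (adjusted p = 2.81e-06; pool-adjusted p = 0.00525), with a wide range of 38.3, 98.5 and 170.4 CPM there. Drd2, a dopamine receptor of striatal projection neurons that is also on the striatal list, was higher in SST, with log2 change of -4.56 ± 0.64 (adjusted p = 3.71e-06) and stood highest in replicates 1 and 3. Lynx1, a brake on nicotinic receptors, was higher in PV at 369, 535 and 707 CPM against 116, 142 and 166 CPM (1.92 ± 0.28, adjusted p = 5.61e-06), with a pool-adjusted value of opposite sign that was not called (-0.70 ± 0.52, adjusted p = 0.347).

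Among 35 synaptic adhesion and organiser genes, 8 were higher in PV and 13 in SST (median -0.32; pool-adjusted 4 and 11). Elfn1, which recruits presynaptic glutamate receptors and makes excitatory inputs onto somatostatin cells facilitate, ran at 202, 237 and 332 CPM in SST and 2.81, 7.85 and 20.6 CPM in PV. The change was -4.80 ± 0.38 (adjusted p = 2.79e-10; pool-adjusted -7.32 ± 0.95, adjusted p = 9.41e-06), with no overlap. Cbln4, a cerebellin that takes part in dendritic inhibition by somatostatin cells, ran at 45.7, 99.8 and 219 CPM in SST and 2.81, 4.92 and 6.44 CPM in PV (-4.54 ± 0.52, adjusted p = 1.44e-07; pool-adjusted p = 0.00262). Lgi2, a secreted synaptic protein, and Clstn2, a calsyntenin, were higher in PV by 1.47 ± 0.17 and 1.42 ± 0.17 (adjusted p = 1.51e-07 and 3.96e-07; pool-adjusted p = 0.125 and 0.185). Cadherins and protocadherins were higher in SST for 13 of 24 and in PV for 2 (pool-adjusted 11 and 1), led by Pcdh18 with 67.3, 79.0 and 115 CPM in SST and 0.937, 4.64 and 7.97 CPM in PV (-4.26 ± 0.34, adjusted p = 3.35e-10). Cdh18 was 1 of the 2 higher in PV (1.36 ± 0.19, adjusted p = 2.93e-06; pool-adjusted p = 0.93).

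Axon guidance genes gave 18 of 34 higher in SST and 5 in PV (median -0.74; pool-adjusted 15 and 1). Nrp2, a semaphorin co-receptor, ran at 51.4, 62.2 and 89.4 CPM in SST and 2.99, 6.10 and 9.65 CPM in PV (-3.47 ± 0.23, adjusted p = 1.44e-11; pool-adjusted -3.95 ± 0.54), and the secreted ligand Sema3c was higher in SST, with log2 change of -3.52 ± 0.35 (adjusted p = 1.46e-08; pool-adjusted p = 0.0111). Towards PV stood Slit2, a repellent ligand of Robo receptors, at 159, 189.7 and 251 CPM against 40.4, 47.3 and 65.6 CPM (2.02 ± 0.31, adjusted p = 1.56e-05; pool-adjusted p = 0.19), and the semaphorin receptor Plxna4 (1.44 ± 0.14, adjusted p = 1.16e-08; pool-adjusted 0.98 ± 0.35, adjusted p = 0.0441).

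Perineuronal nets are matrix coats found mainly around parvalbumin cells, and their genes leaned to PV, with 10 of 19 higher there and 4 in SST (median 1.47; pool-adjusted 4 and 3, median -0.22). Hapln4, a link protein that stabilises the coat, ran at 235, 292 and 332 CPM in PV and 25.6, 29.2 and 49.8 CPM in SST (3.12 ± 0.25, adjusted p = 4.35e-10; pool-adjusted p = 0.303). Acan, aggrecan, the core proteoglycan of the net, was low in both, at 9.65, 13 and 20.1 CPM in PV and 0.0889, 0.686 and 1.63 CPM in SST (4.2 ± 0.64, adjusted p = 1.47e-05), and its pool-adjusted value was near 0 (-0.05 ± 0.53). An error computed as here is unstable for a change this near 0, so the 0.53 does not mark a precise value. No library of one group reached the other for either gene. The matrix proteases Adamts15 and Adamts8 were higher in PV by 3.6 ± 0.29 and 3.39 ± 0.46 (adjusted p = 4.15e-10 and 2.11e-06; pool-adjusted p = 0.157 and 0.0173). The membrane peptidase Mme, neprilysin, ran at 196, 267 and 308 CPM in PV and 43.0, 61.0 and 75.2 CPM in SST (2.12 ± 0.22, adjusted p = 4.29e-08; pool-adjusted 1.79 ± 0.62, adjusted p = 0.0384). Sulf1, which trims heparan sulfate, and Vcan, versican, were higher in SST, with log2 changes of -5.80 ± 0.73 and -2.26 ± 0.44 (adjusted p = 8.61e-07 and 2.93e-04; pool-adjusted p = 3.22e-04 and 0.686). Of 16 collagen genes, 1 was higher in PV and 4 in SST (pool-adjusted 2 and 0).

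Genes of the respiratory chain were higher in PV as a group in the fit with no pool term. Of 37 nuclear subunits of complex I, 25 were higher in PV and none in SST, with all 37 changes positive and a median of 0.80. Of 38 subunits of complexes II to V, 31 were higher in PV and none in SST, with a median of 0.97. The changes were modest in size. Ndufb5 of complex I ran at 144, 163 and 199 CPM in PV and 50.9, 55.2 and 83.4 CPM in SST (1.43 ± 0.23, adjusted p = 3.6e-05). Cox5a of complex IV ran at 132, 155 and 200.5 CPM in PV and 45.6, 56.6 and 89.0 CPM in SST (1.38 ± 0.28, adjusted p = 4.28e-04). Atp5g3, a ring subunit of ATP synthase, ran at 312, 347 and 416 CPM in PV and 105, 129 and 207 CPM in SST (1.33 ± 0.20, adjusted p = 8.52e-06). Its SST libraries reached highest in replicate 2, and the groups of all 3 genes stayed apart. Cox6a2, the muscle-type complex IV subunit found in fast-spiking cells, had the largest change, 17.2, 30.6 and 42.9 CPM against 3.16, 4.07 and 5.94 CPM (2.88 ± 0.45, adjusted p = 1.64e-05).

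These group results did not hold with the pool as a covariate. That fit called 0 complex I genes higher in PV and 2 higher in SST, with a median of -0.60, and 1 and 3 genes of complexes II to V, with a median of -0.62. Pool-adjusted values turned sign for Ndufb5 (-0.33 ± 0.52), Cox5a (-0.20 ± 0.68) and Cox6a2 (-2.10 ± 3.20), none of them called, and that of Atp5g3 was 0.31 ± 0.47 (adjusted p = 0.678). EXC replicate 3, on which the pool-adjusted fit rests, was the lowest EXC library for both lists. Its complex I genes summed to 480 CPM, against 816 to 1335 CPM in the other EXC libraries. Those of complexes II to V summed to 1310 CPM, against 2692 to 4222 CPM. Of the VIP libraries that link that fit to SST, replicate 1 was the lowest of its group for both lists, at 588 and 1701 CPM. VIP replicate 3 had 1045 and 2777 CPM. What part these levels have in the pool-adjusted values was not tested. The complex I count also rested on single libraries, with 12 genes higher in PV without PV replicate 4 and 16 without SST replicate 4. Without SST replicates 1 and 3 the complex I count fell to 13 and that of complexes II to V was 26, with none higher in SST.

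Enzymes of glycolysis and the tricarboxylic acid cycle with their regulators gave 23 of 33 higher in PV and 2 in SST, with a median of 0.73. Under the pool-adjusted fit 3 were higher in PV and 10 in SST, with a median of -0.70. These genes summed to 1839 CPM in EXC replicate 3 and to 3194 to 4468 CPM in the other EXC libraries. The 2 regulators held in both fits. Ppargc1a, the coactivator PGC-1alpha that drives mitochondrial genes, ran at 581, 698 and 829 CPM in PV and 187, 245 and 341 CPM in SST (1.48 ± 0.16, adjusted p = 1.06e-07; pool-adjusted 2.12 ± 0.40, adjusted p = 5.68e-04). Esrrg, an estrogen-related receptor that works with it, ran at 273, 327 and 368 CPM in PV and 52.0, 61.8 and 87.0 CPM in SST (2.33 ± 0.22, adjusted p = 9.51e-09; pool-adjusted 2.56 ± 0.57, adjusted p = 0.00264). The lactate dehydrogenase subunits went apart. Ldhb, the subunit that favours pyruvate, was higher in PV at 228, 274 and 326 CPM against 56.3, 63.2 and 79.9 CPM (2.06 ± 0.24, adjusted p = 3.04e-07; pool-adjusted -0.36 ± 0.46, not called). Ldha, which favours lactate, was higher in SST at 55.0, 66.4 and 77.2 CPM against 17.9, 24.2 and 40.3 CPM (-1.34 ± 0.22, adjusted p = 2.98e-05; pool-adjusted -2.42 ± 0.50, adjusted p = 0.00121).

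Ion pumps gave 6 of 22 genes of pumps, gap junctions and chloride transport higher in PV and 10 in SST (pool-adjusted 0 and 11). The list summed to 4481 CPM in EXC replicate 3 and to 9761 to 13608 CPM in the other EXC libraries. Atp1b1, a beta subunit of the sodium pump, ran at 5737, 6092 and 7635 CPM in PV and 2794, 3122 and 3736 CPM in SST and was higher in PV by 1.03 ± 0.21 (adjusted p = 4.2e-04). The pool-adjusted fit called it in the opposite direction (-1.04 ± 0.33, adjusted p = 0.0256). The calcium pump Atp2b4 was higher in SST, at 238, 271 and 298 CPM against 7.03, 20 and 34.3 CPM (-3.92 ± 0.30, adjusted p = 2.29e-10). Gjd2, connexin 36 of electrical synapses between interneurons, was higher in PV at 41.4, 51.2 and 64.3 CPM against 8.17, 18.3 and 28.8 CPM (1.53 ± 0.30, adjusted p = 2.92e-04; pool-adjusted p = 0.297).

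**Figure D4:**
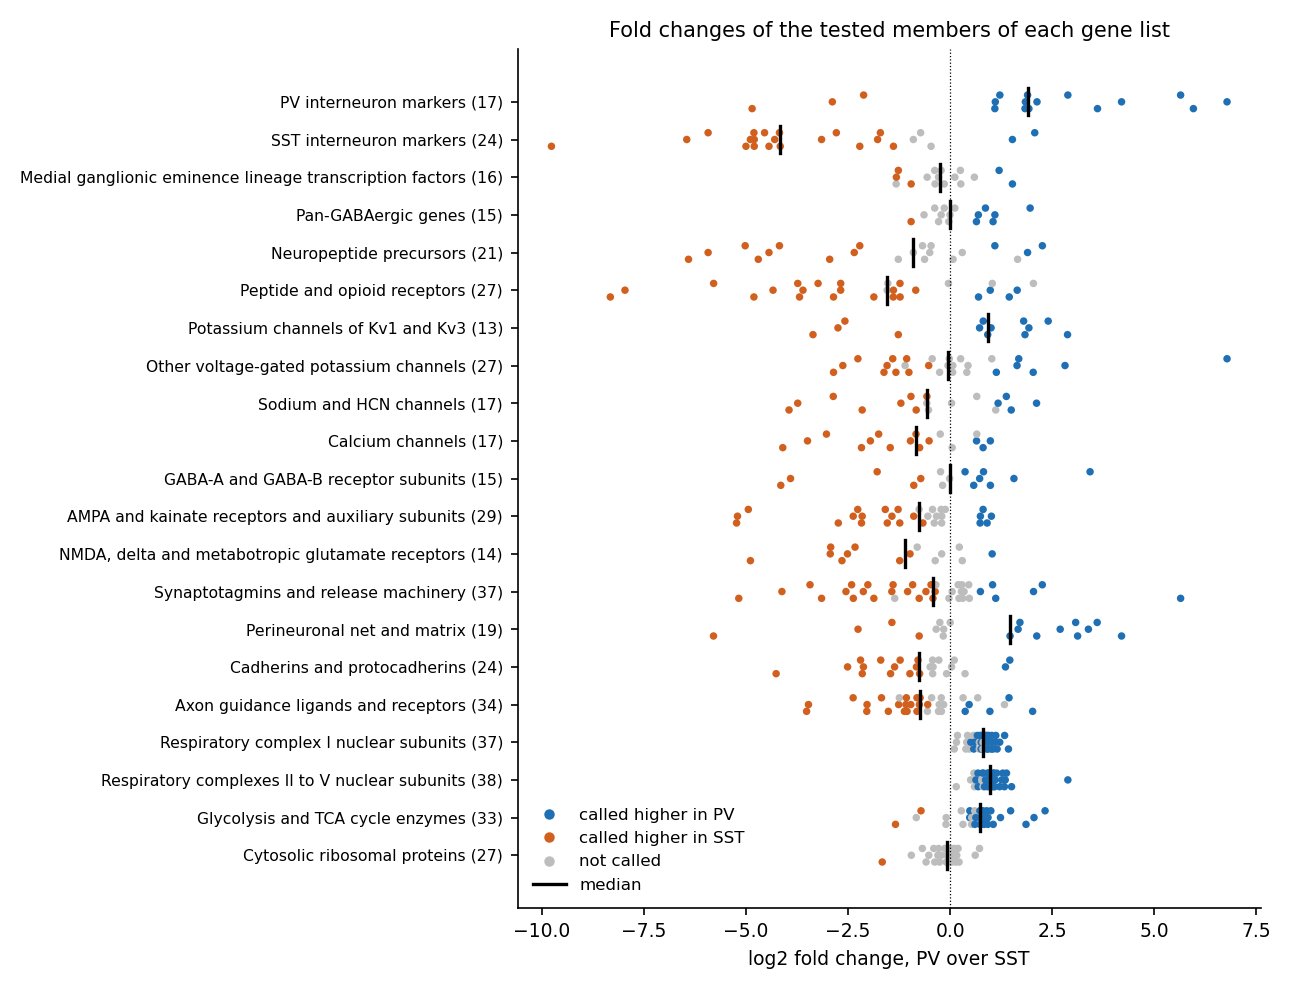
Log2 fold changes of PV over SST of the tested members of 21 gene lists, with the number tested in brackets, a bar at each median and colours for the call. Respiratory chain genes lie to the right of 0, somatostatin markers far to the left, and channels and receptors on both sides.

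Reads on genes of the mitochondrial genome moved with the groups. They made up 14.4% to 52.9% of a PV library, lowest in replicate 5 and highest in replicate 6, and 4.41% to 7.87% of an SST library. The means were 35.07% ± 13.27 in PV and 6.41% ± 1.56 in SST (SD, n = 6 each), a difference of 28.67 percentage points (exact permutation test, two-sided, p = 0.00216, the smallest that 6 against 6 allows). Of 12 genes of the mitochondrial genome tested, 11 were higher in PV and none in SST (median 2.98; pool-adjusted 4 and 0, median 1.96). The ribosomal RNA mt-Rnr2 ran at 3417, 8872 and 35145 CPM in PV and 495, 992 and 1740.1 CPM in SST (3.87 ± 0.65, adjusted p = 5.36e-05). With these genes taken out of library sizes and tests, 24 complex I genes and 31 of complexes II to V were higher in PV and none in SST. What part the share of mitochondrial reads has in the other differences was not tested.

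Markers of some other cells also moved with the groups. Of 16 genes of motile cilia, known from ependymal cells, 15 were higher in PV and none in SST (pool-adjusted 2). Their summed level was 143, 347 and 547 CPM at the lowest, median and highest PV library and 15.2, 17.4 and 19.0 CPM in SST, with EXC at 18.4 to 38.9 and VIP at 4.40 to 9.46. PV replicate 5 had the least and replicate 6 the most, the same order as at the ends of the mitochondrial share. Of the listed genes, 1 had no read in any SST library, 1 none in EXC and 5 none in VIP, while all were read in PV. Stoml3, a stomatin family protein, had 6.99, 15.2 and 24.7 CPM in PV and no SST read, at least 364-fold higher against the floor of 3 counts over the SST group. The pool-adjusted fit could not estimate its change (7.19 ± 37805.6), so the missing call there does not speak to the difference. Foxj1, the master factor of motile cilia, had 8.08, 14.9 and 22.2 CPM in PV and at most 0.544 in SST (5.42 ± 0.79, adjusted p = 6.60e-06; pool-adjusted p = 0.8). Without PV replicates 3 and 6, the libraries with the most, 16 of 17 were called higher in PV.

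Astrocyte genes gave 8 of 12 higher in PV and none in SST (median 2.33), with summed levels of 277, 583 and 896 CPM in PV and 246, 303 and 361 CPM in SST. The sums were 521 to 4672 CPM in EXC and 1128 to 1692 CPM in VIP, so every VIP library stood above every PV library. PV replicate 5 lay within the SST range, and the pool-adjusted fit called 0 higher in PV and 1 in SST. Aqp4, the water channel of astrocyte endfeet, ran at 13.3, 34.0 and 76.2 CPM in PV and 1.14, 2.53 and 3.12 CPM in SST (4.27 ± 0.74, adjusted p = 6.78e-05; pool-adjusted p = 1), and Gfap, an astrocyte filament protein, reached 6.44 and 0.200 CPM, with a pool-adjusted value of opposite sign (-1.25, adjusted p = 0.798). Oligodendrocyte genes summed to 121 to 453 CPM in PV and 89.2 to 211 in SST (1 of 7 higher in PV), microglial genes to 40.9 to 162 and 37.1 to 65.5 (3 of 10 higher in PV, 1 in SST), endothelial genes to 35.0 to 124 and 23.3 to 37.0 (1 of 4 higher in PV), and mural cell genes to 14.4 to 43.2 and 11.5 to 16.7 (2 of 8). Of all genes tested, 11.4% were called higher in PV and 14.9% higher in SST, and the summed ranges of PV and SST overlapped for each of these 4 lists. Oligodendrocyte genes summed to 85.0 to 2987 CPM in EXC and 59.7 to 741 CPM in VIP. The 3 microglial calls became 1 without SST replicates 1 and 3 and 0 without PV replicates 3 and 6, and the 1 towards SST was lost without any single PV library or any single SST library but replicate 5. The 1 oligodendrocyte call was lost without PV replicate 1 or 2 or without SST replicate 2, 3, 4 or 6, and became 2 without EXC replicate 3. The 2 mural calls became 0 without PV replicate 3 and 1 without PV replicate 2 or 4 or without SST replicate 2, 3, 5 or 6, and 1 mural gene was called higher in SST without PV replicate 6. With the pool, no gene of these 4 lists was called higher in PV, and 5 oligodendrocyte genes were called higher in SST. EXC replicate 3, on which that fit rests, had 85.0 CPM of oligodendrocyte genes, against 299 to 2987 CPM in the other EXC libraries. What part this has in those calls was not tested. No listed marker of these 5 cell types was at 0 in a whole group. Choroid plexus genes (1 of 5 higher in PV, 3 in SST) summed to 2.18 to 76.2 CPM in PV, highest in replicate 4, and 26.8 to 44.2 in SST (pool-adjusted 0 and 2). The 1 higher in PV became 0 without PV replicate 4 and 2 without PV replicate 1 or 5, SST replicate 3 or EXC replicate 3. The oligodendrocyte precursor gene Pdgfra was not called. The part of all these cells in the PV to SST differences was not tested.

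SST libraries carried more reads of striatal genes than PV libraries. All 13 calls among 14 genes of striatal projection neurons were higher in SST (median -3.75; pool-adjusted 10), and their summed level was 743, 1415 and 2714 CPM in SST and 270.0, 293 and 326 CPM in PV. SST replicates 1 and 3, both male, stood highest with 2428 and 2714 CPM, and replicate 4 was the lowest SST library. The sums were 388 to 552 CPM in EXC and 645 to 920 CPM in VIP. SST replicates 4 and 6, with 743 and 800 CPM, thus lay within the VIP range, and PV was the lowest group. Ppp1r1b, which encodes DARPP-32, ran at 38.3, 131 and 308 CPM in SST and 2.84, 10.6 and 17.2 CPM in PV (-3.85 ± 0.65, adjusted p = 5.55e-05), and the adenosine receptor Adora2a at 4.15, 21.8 and 55.0 and 0, 0.559 and 2.34 CPM (-4.86 ± 0.63, adjusted p = 1.37e-06). Without replicates 1 and 3, 11 of the 14 tested were called higher in SST. The part of these reads in other SST results was not tested.

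Genes of other interneuron classes were mostly higher in SST. Of 8 genes of LAMP5 and neurogliaform cells, 6 were higher in SST and 1 in PV, and of 15 genes of VIP and related cells, 8 and 1 (pool-adjusted 6 and 0, and 6 and 0). Vip itself was not called (-0.63; pool-adjusted 1.71), at 1.26 CPM or less in PV and 2.23 CPM or less in SST, against 1727 ± 51.4 CPM in VIP (SD, n = 6). Reln, reelin, which somatostatin cells also make, ran at 581, 651 and 813 CPM in SST and 35.6, 50.3 and 61.2 CPM in PV (-3.76 ± 0.21, adjusted p = 1.01e-12; pool-adjusted -3.68 ± 0.56). Nos1, nitric oxide synthase of long-range somatostatin cells, ran at 209.6, 269 and 451 CPM in SST and 29.5, 41.2 and 81.4 CPM in PV (-2.79 ± 0.24, adjusted p = 1.58e-09). Of 17 excitatory neuron genes, 3 were higher in PV and 7 in SST (pool-adjusted 0 and 11), and the 3 became 1 without PV replicate 2 or 3 or without SST replicate 2, 5 or 6. In EXC replicate 3, on which the pool-adjusted fit rests, this list summed to 3132 CPM, against 6180 to 8470 CPM in the other EXC libraries. Slc17a7, the vesicular glutamate transporter of cortical excitatory cells, ran at 9.83, 19.4 and 26.8 CPM in PV and 22.5, 42.4 and 60.4 CPM in SST, overlapped, and was not called (-1.14 ± 0.49, adjusted p = 0.0908). It was called higher in SST without EXC replicate 3 (-1.16, adjusted p = 0.0477), in the fit of the 12 libraries alone (-1.19, adjusted p = 0.000529) and with no filter (-1.22, adjusted p = 0.000237). EXC averaged 532 ± 214 CPM.

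**Figure D5:**
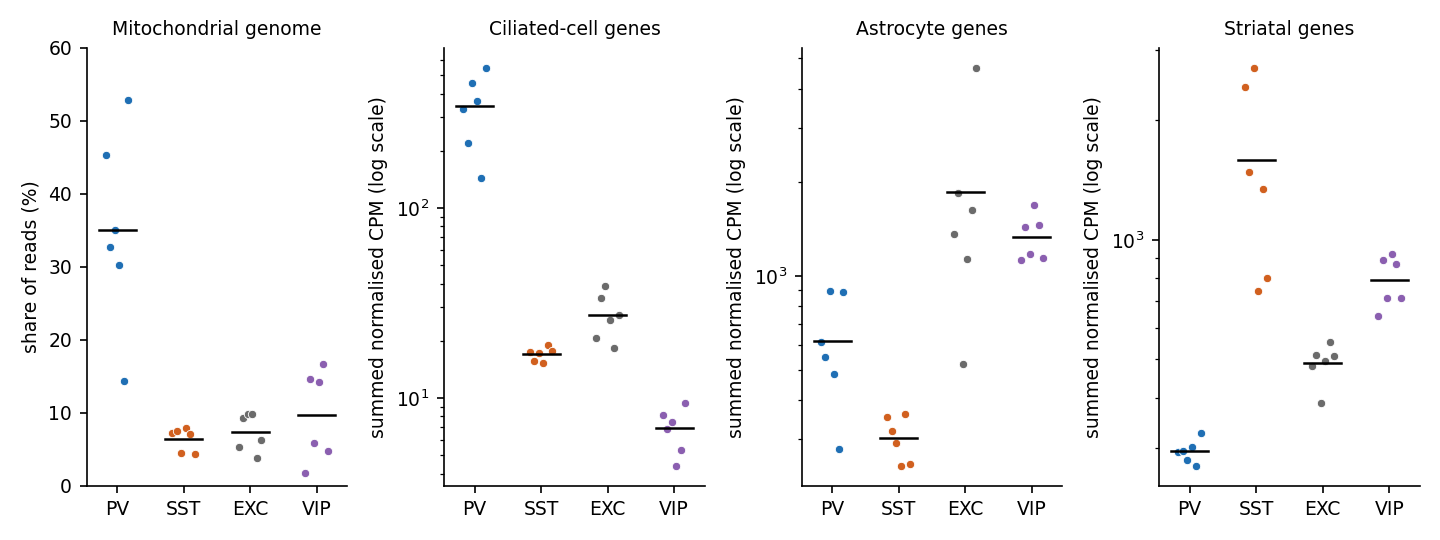
Share of reads on the mitochondrial genome (percent) and summed normalised CPM (log axes) of ciliated-cell, astrocyte and striatal gene lists in each library, by group, with a bar at the mean of 6. PV has the highest mean for mitochondrial reads and ciliated-cell genes, and EXC for astrocyte genes. SST has the highest mean for striatal genes, with replicates 1 and 3 on top.

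Genes induced by activity or stress numbered 25, of which SST had the higher level for 7, PV for 2, and 16 were not called (median -0.75; pool-adjusted 5 and 0). The 2 higher in PV became 1 without PV replicate 4, SST replicate 3 or SST replicate 6. Egr1, an immediate early transcription factor, ran at 126, 179.6 and 400.0 CPM in SST and 38.1, 51.2 and 85.8 CPM in PV (-2.07 ± 0.37, adjusted p = 9.71e-05), highest in SST replicates 1 and 3, the libraries with the most striatal reads. Bdnf, which cortical excitatory cells express, was at 4.2, 5.56 and 14.8 CPM in SST and 0, 0.562 and 3.22 CPM in PV (-3.23 ± 0.65, adjusted p = 4.42e-04; pool-adjusted p = 0.0618). Dusp1, a phosphatase induced by stress and activity, was higher in PV (1.52 ± 0.37, adjusted p = 0.00279; pool-adjusted p = 1). In growth factor signalling, 4 of 15 were higher in PV and 5 in SST (pool-adjusted 1 and 3). Igf1, insulin-like growth factor 1, ran at 70.2, 143 and 213 CPM in SST and 11.5, 15.2 and 37.8 CPM in PV (-2.95 ± 0.28, adjusted p = 6.16e-09; pool-adjusted p = 0.0537), and Nrg1, a ligand of Erbb4, was higher in SST, with log2 change of -2.50 ± 0.28 (adjusted p = 1.06e-07).

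Cytosolic ribosomal protein genes did not lean to either group. Of 27 tested, 26 were not called and Rps6 was higher in SST, at 4.21 CPM or less in any library (-1.66 ± 0.49, adjusted p = 0.012; pool-adjusted p = 0.214), and the median was -0.08. With the pool 1 was higher in PV and 3 in SST, and without EXC replicate 3 the number higher in PV was 1. Reads that align to several copies are not counted, so levels of this family with its many pseudogenes are uncertain.

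The PV to SST difference was also compared between sexes. With 3 female PV and 2 female SST libraries, edgeR called 0 genes for the subtype-by-sex term, while 335 of 14890 had an unadjusted p under 0.05. This does not show that the difference is alike in both sexes.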

How the data were processed

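Counts and RPKM values were deposited per library for 36528 genes by NCBI Gene number. The deposited counts are, per the file headers, reads that aligned to a single gene, and the RPKM values were adjusted by the authors with size factors. The submitters' processing notes name GSNAP and the genome GRCm38, with the version, counting program and strand setting not given in the sources used here. RPKM values were not used for any result. Symbols came from RefSeq for 31049 genes and from GENCODE for 77 more, so genes without a symbol, with 0.844% to 2.98% of a library's reads, stayed in the tests unnamed.

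Counts of all 24 libraries were fitted with edgeR 4.0.16 in R 4.3.3 (filterByExpr by subtype, TMM, terms for subtype and sex), and the contrast PV minus SST was tested by quasi-likelihood F tests with Benjamini-Hochberg adjustment over the 14890 genes kept. Genes with an adjusted p under 0.05 were called. Levels are CPM after TMM scaling, and a standard error was obtained as the absolute log2 change over the root of the F statistic. Such an error is unstable where the change is near 0. The share of mitochondrial reads was compared by an exact permutation test in scipy 1.17.1. In counts simulated for this comparison over 14890 genes, 44 of 100 genes changed 2-fold and 99 of 100 changed 4-fold were called, with 6 false calls. The simulation had the same fixed dispersion for every gene and no pool effect, and it changed only genes above a set expected count. These rates therefore need not hold for the data, where subtype and pool go together and many genes have few reads in PV. Chi-square per degree of freedom between libraries of a group was at least 5.576, so none was a copy.

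Total counts ran from 1548907 to 15978459, and counting error alone is what the 95% intervals and the floor of 3 counts describe. Genes were named by this rule: per direction the 15 with the largest change among calls with at least 10 CPM in the higher group and no overlap, skipping predicted genes; the defining genes; and up to 4 called members per direction and up to 2 others of each of 42 lists. Some genes that the rule names are not reported here. The comparison, lists and rule were chosen with earlier results of these data known. Alternatives covered DESeq2 1.42.0, its size factors, filters, sex and pool terms, robust empirical Bayes, removed mitochondrial genes, thinning to 1548907 reads and left-out libraries, with 2 pairs of libraries left out after seeing the data. Promoters came from RefSeq (GRCm38.p6).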

Additional observations from a re-analysis of the deposited data

Results flagged for a closer look

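Of 346 tests of a library against the other 5 of its group, 45 (13%) found a highest or lowest value whose gap to the next exceeded Dixon's 95% limit for 6 values, 26 in PV and 19 in SST. That limit gives about 1 in 20 by chance only for values that follow a normal distribution. Levels of genes with few reads in a group do not, so the 13% cannot be compared with that rate.

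Many of the values flagged belong to genes near 0 reads in PV, where 1 or a few reads in 1 library stand out. In PV replicate 1 these were Dlk1, Myh13 and Adgrg6 at 0.747 CPM each. In replicate 2 they were Otof at 0.937, Chrna2 at 0.469 and Adora2a at 2.34 CPM. In replicate 3 Gabrq and Epyc stood at 0.419 CPM, and in replicate 5 Slc35d3 at 0.655 and Tac2 at 0.218 CPM. In replicate 6, the library with the fewest reads, the set was Stk32b and Sulf1 at 1.07 CPM, Gpr101, Prlr and Oprk1 at 2.15 CPM and Adra2a at 3.22 CPM. Replicate 6 was also highest for Shisa6, a gene with reads in all 6 PV libraries, at 20.4 CPM.

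PV replicate 3 was highest for 5 further genes that were higher in SST than in PV, namely Pdyn (8.81 CPM), Syt6 (5.87), Igf1 (37.8), Nos1 (81.4) and Th (4.195). PV replicate 4 stood out for Sstr1 (7.77 CPM), Gabrg1 (17.01) and Gpr149 (0, the lowest), and for the summed choroid plexus genes at 76.2 CPM against 13.4 CPM in the next library. PV replicates 3 and 4 were also those with the most Sst.

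SST replicate 4 was highest for Kcnmb1 (0.468 CPM), Slc14a2 (0.535), Cck (40.1), Kcnd3 (262), Shisa6 (339.7), Clstn2 (103.6), Pcdh18 (115), Slit2 (65.6) and Bdnf (14.8). SST replicate 2 was highest for Tmem212 (0.0889 CPM), Adra2a (17.3), Ndufb5 (83.4), Cox5a (89.0) and Atp5g3 (207). Stk32b (21.7 CPM) and Tac2 (17.3) were highest in SST replicate 6, and Kcng4 (1.15 CPM) in replicate 1. Calb1 was lowest in SST replicate 3 at 237 CPM, with 366 CPM in the next library. Sftpb was lowest in SST replicate 5 at 0.466 CPM against 28.2 CPM in the next, and that library alone of its group came from POOL7100.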

How the results depend on the processing

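No paired analysis was possible because the labels give no replicate numbers. Leaving out 1 library at a time, EXC replicate 3 included, gave 1449 to 2032 genes higher in PV and 1926 to 2716 higher in SST. The difference in mitochondrial share was 25.1 to 32.8 points. Genes higher in PV numbered 2600 with the 12 libraries alone, 1101 with the pool as a covariate and 1002 at 2-fold or more, and genes higher in SST 1373 at 2-fold or more. After leaving out SST replicates 1 and 3 the counts were 1294 and 2013, and after leaving out PV replicates 3 and 6 they were 1350 and 1977, pairs chosen after seeing the data. DESeq2 gave 2054 and 2282. The subtype-by-sex term gave 0 calls in every fit, with 241 genes at an unadjusted p under 0.05 under the strict filter and 772 with the 12 libraries.

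Of 165 named genes, 85 kept direction and side of the threshold with the pool, 58 kept direction and lost their call, 1 gained one and 21 turned sign. Genes that turned sign include some whose calls also ended, such as Gad2, Cck and Cplx1, so more than 58 calls were lost. Those 21 log2 values were -4.39 for Prelp, 0.25 for Gad2, 1.71 for Vip, -1.47 for Slc32a1, -0.28 for Aldh5a1, -0.54 for Cck, 1.68 for Cort, -5.96 for Cckbr, -0.61 for Cacna2d2, -0.35 for Cplx1, -1.40 for Grin2d, -0.70 for Lynx1, -0.046 for Acan, -1.04 for Atp1b1, -2.10 for Cox6a2, -0.33 for Ndufb5, -0.20 for Cox5a, -0.36 for Ldhb, -0.36 for Mdh1, -1.25 for Gfap and -0.0050 for Pdlim3. The cause was not tested. No other alternative turned the sign of a named gene. The pool fit could not be made without EXC replicate 3. PV libraries hold fewer reads than SST libraries, so genes near 0 in PV rest on few reads.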
